A study of Mus musculus with 6 samples.

Results

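Collagens are the trimeric structural proteins of the extracellular matrix, and each chain is the product of a gene of its own. The collagen chain genes were taken as all genes whose symbol is Col, a number, the letter a and a number, which gave 44 genes with 227 named transcripts among the 53135 genes in the tables. The 25 genes whose named transcripts had a mean of at least 0.5 FPKM over the 6 libraries are described here. The unit FPKM counts sequenced fragments per kilobase of a transcript after division by library depth. By textbook class these were 8 of 11 fibrillar chains, 5 of 6 chains of basement membrane collagen IV, and 12 of 27 other chains. Col8a2 lay just above the limit at 0.52 FPKM, and Col4a3 and Col13a1 lay just below it at 0.45 and 0.44 FPKM.

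Every collagen is built from 3 chains wound into a triple helix. Fibrillar collagens assemble into banded fibrils in connective tissue, and collagen IV assembles into the sheet that underlies epithelia. In the testis, Sertoli cells and peritubular myoid cells together lay down the basement membrane around the tubule, whose collagen IV network contains several of the alternative chains. Chains that form one molecule must be made in the same cell, and some of them are encoded by neighbouring gene pairs that are read in opposite directions.

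Total RNA with ribosomal RNA removed was sequenced from mouse cell lines labelled as Sertoli cells, the somatic cells that support germ cells inside the tubule. The 3 GFP-positive libraries (2, 4 and 7, described as green) came from lines expressing a GFP carried on the Y chromosome, and the 3 GFP-negative libraries (9, 11 and M, described as non-green) from lines not expressing it. Strain, age, culture conditions, the promoter driving GFP and the origin of each line are not given in the sources used here, nor whether a line is a clone. Whether the replicates are separate cultures or animals is not labelled either, and the p-values therefore reflect only how far these libraries varied, a variation that may be technical.

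Aligned bases came to 11.2 to 11.8 Gb in the GFP-positive libraries and to 8.25 to 10.02 Gb in the GFP-negative ones. Of 15 Sertoli cell markers 14 were tested, 3 fell and 1 rose (21.4% and 7.14%, against 13.7% and 16.6% of all genes). Only Rhox5 of these 15 stayed under 0.5 in every library, on the scale of FPKM made comparable between libraries (scaled FPKM). Clu and Cldn11, the most abundant of them, were present in all 6. The summed Sertoli marker level was 3324, 2231 and 1595 in GFP-positive libraries 2, 4 and 7, against 3146, 814 and 3055 in GFP-negative libraries 9, 11 and M. The groups overlapped, and most of the sum was Clu and Cldn11, at 518 and 102 in library 11. Germ cell markers summed to 170, 39.5 and 68.7 in GFP-positive libraries and to 2.30, 2.23 and 3.96 in GFP-negative libraries. Of 9 tested germ cell markers 7 rose (16.6% of all genes did), 6 of which averaged under 0.5 in the GFP-negative libraries and so were tested only through their GFP-positive levels, and the protamines Prm1 and Prm2 were at 0 in all 6.

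Most of the described collagen genes had lower levels in the GFP-positive lines, but few of them passed the test. Of the 25 genes, 4 fell and 0 rose with an adjusted p under 0.05 (limma across 15293 genes, GFP-positive minus GFP-negative). They were Col1a1, the alpha-1 chain of collagen I; Col4a2, the alpha-2 chain of collagen IV; Col6a3, the alpha-3 chain of collagen VI; and Col15a1, the chain of collagen XV. That is 16% of the collagen genes falling, against 13.7% of all genes tested. Calls in either direction made up 30.3% of all genes and rises 16.6%, so the collagen count is near the background for falls and under it for rises. The difference was below 0 for 21 of the 25 genes (84%), compared with 48.9% of all genes, and its median was -1.06, compared with 0.03. At an unadjusted p under 0.05 the count was 11 of 25 (44%), close to the 44.5% of all genes. All 3 GFP-positive libraries lay below all 3 GFP-negative ones for 7 collagen genes (28%, against 23.2% of all genes), and the reverse held for 0 (24.4% of all genes). Separation in either direction was seen for 47.7% of all genes. In bulk RNA, fewer cells that make a collagen and less of its RNA per cell cannot be told apart. Col7a1 was under 0.5 scaled FPKM in all 3 GFP-positive libraries and so was tested only through its GFP-negative levels, and Col8a2, with a GFP-negative mean of 0.375, only through its GFP-positive ones.

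**Figure D1:**
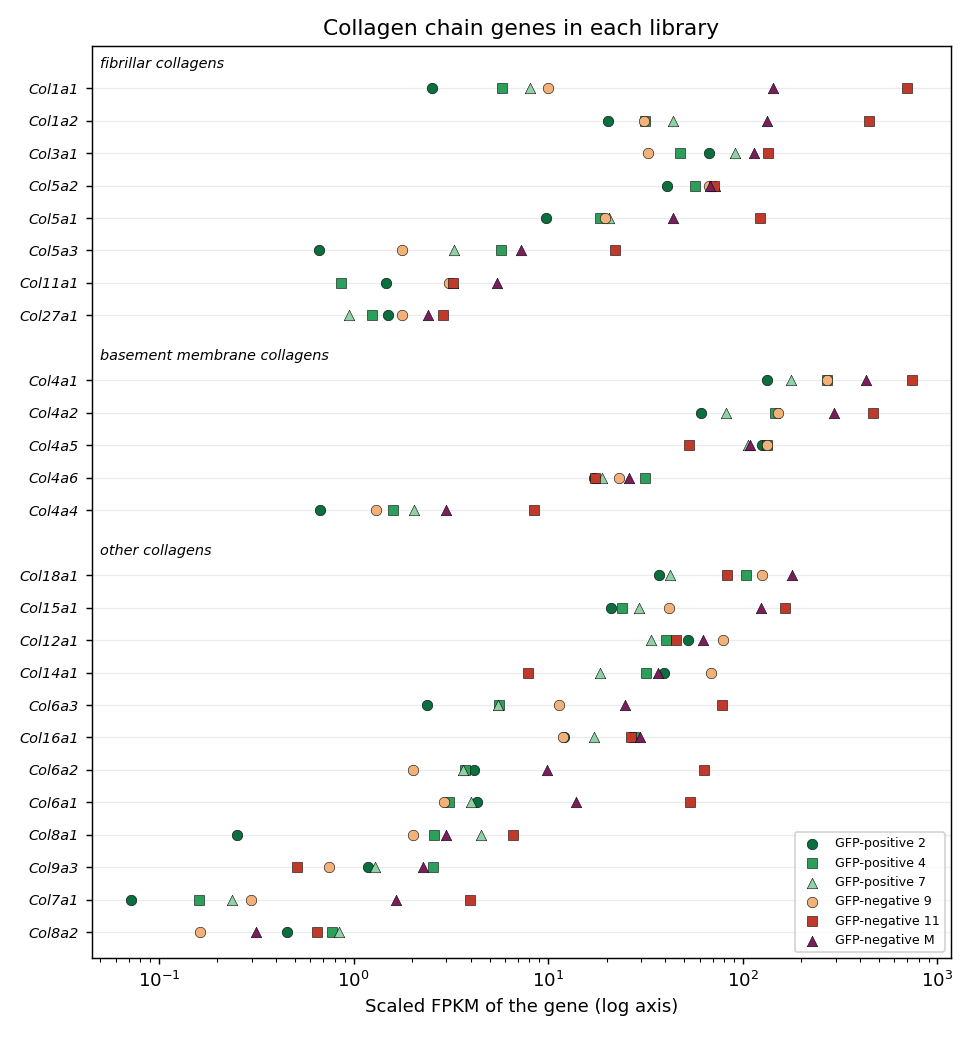
Scaled FPKM of the 25 described collagen genes in each library, on a log axis, grouped into basement membrane, fibrillar and other collagens. Library GFP-negative 11 was the highest for 15 of the 25 genes, and Col1a1 spanned 2.53 (GFP-positive 2) to 693 (GFP-negative 11).

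The spread within the GFP-negative group was wide and ordered the same way in many collagen genes. Library 11 was the highest of all 6 for 15 of the 25 genes (60%), compared with 26.0% of all genes tested. The order 11, then M, then 9 was seen for 17 genes (68.0%), compared with 29.0% of all genes. Library 11 exceeded library 9 more than 3-fold for 14 genes (56.0%, against 9.66% of all genes) and more than 10-fold for 6 (against 234 of all 15293 genes tested). The ratio of the highest to the lowest library had a median of 2.12 over the GFP-positive libraries and 3.98 over the GFP-negative ones, and it was wider among the GFP-negative libraries for 20 of 25 genes. That ratio was not computed over all genes, so whether the wider spread is particular to collagens is not known. Library 9 was at or below the highest GFP-positive library for 14 of the 25 (56.0%, against 66.2% of all genes). Without library 11 the median collagen difference was -0.68. Without 11 and M together, a setting chosen after seeing the data, it was -0.28. That setting leaves 1 GFP-negative library, assumed to vary like the GFP-positive ones, and limma called no gene of any kind in it (3678 genes and 4 collagens had an unadjusted p under 0.05), so its lack of calls says nothing about single genes.

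Collagen IV, the network collagen of basement membranes, supplied the largest class in 5 of the 6 libraries. Its 5 chains summed to 338, 583 and 387 scaled FPKM in GFP-positive libraries 2, 4 and 7, against 581, 1283 and 861 in GFP-negative libraries 9, 11 and M. These were 51.5%, 58.5% and 48.9% of all described collagen FPKM in the GFP-positive libraries and 53.1%, 38.8% and 46.1% in the GFP-negative ones. Only in library 11 was the fibrillar class larger. Of the 5 chains 1 fell (20%, against 13.7% of all genes) and 0 rose, with a median difference of -1.06.

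Col4a1 and Col4a2 encode the chains of the most widespread collagen IV trimer, which contains a pair of alpha-1 chains and 1 alpha-2 chain. Col4a1 (chr8:11248423-11362826, minus strand, mm39) was the most abundant collagen in every library by FPKM. It had 134, 270.0 and 177 scaled FPKM in GFP-positive libraries 2, 4 and 7, against 272, 740.2 and 430.0 in GFP-negative libraries 9, 11 and M. The groups did not overlap, although GFP-positive 4 and GFP-negative 9 were almost level. The log2 difference was -1.25 (SE 0.44, 95% confidence interval -2.26 to -0.25) and missed the threshold (limma adjusted p = 0.0605). It passed without library GFP-negative 9 (adjusted p = 0.016).

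Col4a2 (chr8:11362805-11499287, plus strand, mm39) had 60.7, 146 and 82.4 scaled FPKM in GFP-positive libraries, against 151, 464 and 294 in GFP-negative libraries. The groups were again separate, with GFP-positive 4 next to GFP-negative 9. It fell by 1.60 on the log2 scale (SE 0.48, limma adjusted p = 0.0357). The call was lost without library GFP-positive 2 (adjusted p = 0.106), GFP-positive 7 (0.12), GFP-negative 11 (0.0757) or GFP-negative M (0.106), and after removal of the trend with transcript length (0.125). Both genes thus stood lower in every GFP-positive library, with a Col4a1 mean of 194 ± 69.6 scaled FPKM in GFP-positive lines and 481 ± 238 in GFP-negative lines, and a Col4a2 mean of 96.5 ± 44.5 in GFP-positive lines and 303 ± 157 in GFP-negative lines (SD, n = 3 each).

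The Col4a1 and Col4a2 genes lie head to head, and their annotated first exons overlap by 22 bases on opposite strands. Their start regions are shown because the starts of both genes lie side by side on opposite strands. The sequences are the RefSeq windows of build GRCm38.p6, 250 bases before to 50 after the start of each gene, read 5′ to 3′ on the strand of the gene. Coordinates in that build are chr8:11312777-11313076 (minus strand) for Col4a1 and chr8:11312555-11312854 (plus strand) for Col4a2, and 78 bases belong to both windows. Capitals mark the CCAAT box (CCAAT), the GC box core (GGGCGG) and the TATA box (TATAAA), each searched on both strands, with a minus-strand match written as its reverse complement.
Col4a1: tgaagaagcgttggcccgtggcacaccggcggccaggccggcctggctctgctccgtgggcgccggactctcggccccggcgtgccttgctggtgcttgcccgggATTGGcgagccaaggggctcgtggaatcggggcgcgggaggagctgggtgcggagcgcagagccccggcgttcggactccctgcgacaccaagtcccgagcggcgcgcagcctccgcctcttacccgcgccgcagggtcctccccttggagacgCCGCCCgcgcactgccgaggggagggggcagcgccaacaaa
Col4a2: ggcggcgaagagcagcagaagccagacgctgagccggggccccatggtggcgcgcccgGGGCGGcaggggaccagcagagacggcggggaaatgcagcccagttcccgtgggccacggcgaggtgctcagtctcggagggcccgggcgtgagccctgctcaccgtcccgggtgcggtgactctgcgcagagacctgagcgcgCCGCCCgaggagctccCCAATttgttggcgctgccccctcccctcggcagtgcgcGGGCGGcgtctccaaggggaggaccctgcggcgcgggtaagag
Counting the start as 0, Col4a1 held a minus-strand CCAAT at -145 and a minus-strand GGGCGG at 9. Col4a2 held CCAAT at -32 and GGGCGG at -192, at 7 and, on the minus strand, at -48. No TATAAA was found in either window. Over all 32851 windows of the table, 37.4% held CCAAT, 35.7% GGGCGG and 13.6% TATAAA. Over the 22 windows of 20 described collagen genes, 9 held CCAAT, 16 held GGGCGG and 1 held TATAAA. The GGGCGG of Col4a1 at 9 and that of Col4a2 at 7 are the same 6 bases, within the stretch that both windows hold. A match describes the letters only.

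The Col4a2 signal was assigned mainly to 2 transcripts with different starts, of which the upstream one is known here only from the assembly. The annotated transcript had 7.91, 30.1 and 56.1 scaled FPKM in GFP-positive libraries, against 67.4, 293 and 192 in GFP-negative libraries, and the groups did not overlap. An assembled transcript that begins 45768 bases further upstream, within Col4a1 on the opposite strand, had 52.4, 115 and 25.4 in GFP-positive libraries, against 82.2, 170 and 101 in GFP-negative libraries. Its share of Col4a2 was 86.4%, 78.6% and 30.9% in the GFP-positive libraries and 54.4%, 36.5% and 34.3% in the GFP-negative ones. The groups overlapped for the upstream form, and library GFP-positive 7 split its reads much as libraries 11 and M did. With named transcripts only, Col4a2 fell by 2.63 on the log2 scale. The 2 transcripts share nearly all exons and hence reads, so their split is an estimate by the assembler and was given no test. No strand setting is stated, so reads of Col4a1 may also be counted in the upstream form. Whether its start is in use was not tested.

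Col4a5 and Col4a6, the X-linked chains that form an alternative collagen IV trimer, were not called in either direction. Col4a5 (chrX:140258381-140472230, plus strand, mm39) had 126, 133 and 107 scaled FPKM in GFP-positive libraries, against 134, 52.9 and 108 in GFP-negative libraries. Library 11 alone was low, and the other 5 lay between 107 and 134. The log2 difference was 0.41 with an interval from -0.43 to 1.24 (limma adjusted p = 0.413). Col4a6 (chrX:139948399-140257072, minus strand, mm39) had 17.2, 31.6 and 18.9 scaled FPKM in GFP-positive libraries, against 23.1, 17.4 and 25.9 in GFP-negative libraries. The groups overlapped fully, and the difference was -0.01 with an interval from -0.69 to 0.68 (limma adjusted p = 0.991). Its sign turned under 6 alternatives, at values of at most 0.46. Col4a4, a chain of the third collagen IV trimer, was scarce, at 0.671, 1.59 and 2.04 scaled FPKM in GFP-positive libraries, against 1.31, 8.44 and 2.97 in GFP-negative libraries (log2 difference -1.06, limma adjusted p = 0.173). Its partner Col4a3 did not reach the limit by named transcripts. With an unnamed isoform included it was tested at a difference of -0.69 (limma adjusted p = 0.194).

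The annotated starts of Col4a6 and Col4a5 are 1309 bases apart on opposite strands. Their windows are shown as the second head-to-head pair of collagen IV genes, with the same capitals, at chrX:141474027-141474326 (minus strand) and chrX:141475169-141475468 (plus strand) of GRCm38.p6.
Col4a6: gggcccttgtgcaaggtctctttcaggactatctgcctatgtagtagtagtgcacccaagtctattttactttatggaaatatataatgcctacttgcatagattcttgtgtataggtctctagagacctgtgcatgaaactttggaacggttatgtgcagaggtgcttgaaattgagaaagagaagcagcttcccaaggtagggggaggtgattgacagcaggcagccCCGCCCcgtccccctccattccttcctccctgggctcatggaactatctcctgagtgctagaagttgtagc
Col4a5: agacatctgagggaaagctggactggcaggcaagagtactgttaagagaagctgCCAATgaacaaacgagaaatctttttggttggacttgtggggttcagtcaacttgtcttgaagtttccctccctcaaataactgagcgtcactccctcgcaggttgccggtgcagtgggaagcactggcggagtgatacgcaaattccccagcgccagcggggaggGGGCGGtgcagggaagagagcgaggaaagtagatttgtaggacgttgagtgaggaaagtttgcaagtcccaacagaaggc
Here Col4a6 held a minus-strand GGGCGG at -21, and Col4a5 held CCAAT at -196 and GGGCGG at -30. These windows share no base, unlike the pair on chromosome 8.

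Within Col4a5 the transcripts did not keep one proportion. The 54-exon transcript had 76.3, 37.9 and 52.0 scaled FPKM in GFP-positive libraries, against 67.1, 0.446 and 2.97 in GFP-negative libraries. It was therefore assigned little FPKM in libraries 11 and M and held 60.5%, 28.4% and 48.8% of the gene in GFP-positive libraries, against 50.2%, 0.842% and 2.74% in GFP-negative ones. The 53-exon transcript had 17.2, 46.6 and 23.4 scaled FPKM in GFP-positive libraries, against 29.0, 31.2 and 50.5 in GFP-negative libraries. An assembled 51-exon transcript had 15.3, 45.9 and 30.1 in GFP-positive libraries, against 25.9, 21.1 and 54.4 in GFP-negative libraries. For both of these the groups overlapped, and the highest value was in library M. The 54-exon and 53-exon transcripts differ at both ends: in their first exons (57 and 177 bases, against 1 exon of 431 bases) and in the length of the last exon (1138 against 1192 bases). They share their other exons and hence reads, so the split between Col4a5 transcripts is an estimate by the assembler and was given no test. A transcript from the 3′ part of the gene had 17.0, 2.77 and 0.472 scaled FPKM in GFP-positive libraries, against 10.8, 0.0408 and 0.0184 in GFP-negative libraries.

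**Figure D2:**
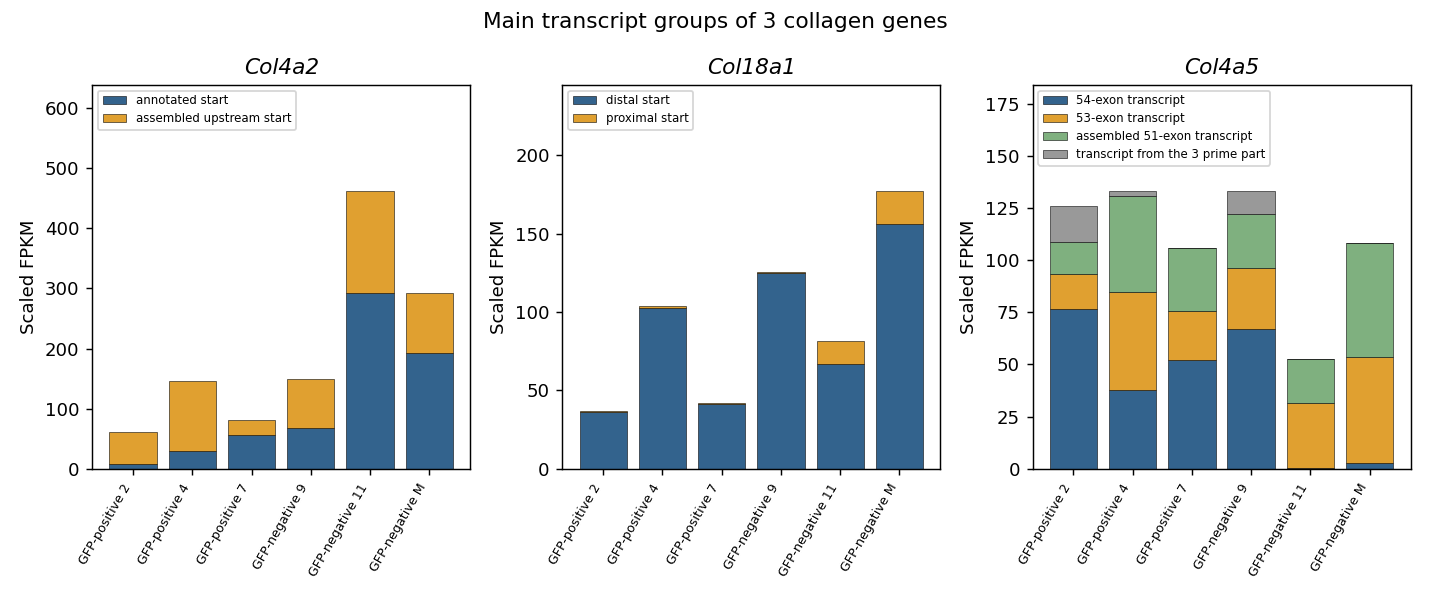
Stacked bars of scaled FPKM for the main transcript groups of Col4a2, Col18a1 and Col4a5 in each library. The 54-exon form of Col4a5 was at 0.446 and 2.97 in libraries GFP-negative 11 and M, and the proximal form of Col18a1 reached 14.7 and 21.4 there.

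The fibrillar collagens showed the largest single difference, in collagen I. All 8 differences were below 0, against 48.9% of all genes and 71.2% of those over 4000 bases, a length each of the 8 exceeded. The median was -1.15. Of the 8 genes 1 fell (12.5%, against 13.7% of all genes) and 0 rose. Their summed level was 144, 168 and 243 scaled FPKM in GFP-positive libraries 2, 4 and 7, against 167, 1494 and 517 in GFP-negative libraries 9, 11 and M. Library 9 thus lay inside the GFP-positive range, and libraries 11 and M lay above it.

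Col1a1 (chr11:94827050-94843868, plus strand, mm39), whose product supplies most of the collagen I molecule, had 2.53, 5.80 and 8.04 scaled FPKM in GFP-positive libraries, against 9.99, 693 and 143 in GFP-negative libraries. The groups were separate by a narrow margin between GFP-positive 7 and GFP-negative 9, whereas library 11 exceeded library 9 by 69.4-fold. The gene fell by 4.21 on the log2 scale (SE 1.25, 95% confidence interval -7.05 to -1.38, limma adjusted p = 0.0352). Means were 5.46 ± 2.77 in GFP-positive libraries and 282 ± 362 in GFP-negative libraries (SD, n = 3 each). The call was lost without any one of GFP-positive 2 (adjusted p = 0.0928), GFP-positive 4 (0.0900), GFP-positive 7 (0.0807), GFP-negative 11 (0.062, difference -2.86) or GFP-negative M (0.112), and after removal of the length trend (0.0617).

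Col1a2, the partner chain in collagen I, moved less. It had 20.2, 31.6 and 43.7 scaled FPKM in GFP-positive libraries, against 31.2, 445 and 133 in GFP-negative libraries. Library 9 sat among the GFP-positive values, and the difference of -2.0 (SE 0.81) missed the threshold (limma adjusted p = 0.0883). Col3a1, the chain of the collagen III homotrimer, had 67.3, 47.5 and 91.1 scaled FPKM in GFP-positive libraries, against 32.7, 134 and 114 in GFP-negative libraries. Library 9 was the lowest of all 6, and the difference was -0.26 with an interval from -1.45 to 0.92 (limma adjusted p = 0.72). By FPKM, which is per length, Col3a1 exceeded Col1a1 in all 3 GFP-positive libraries and in library 9, and the reverse held in libraries 11 and M.

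Collagen V regulates the diameter of collagen I fibrils, and its chains diverged. Col5a1 had 9.73, 18.5 and 20.6 scaled FPKM in GFP-positive libraries, against 19.5, 122 and 43.9 in GFP-negative libraries (log2 difference -1.58, limma adjusted p = 0.0736). Col5a2 was the most even fibrillar chain, at 40.99, 56.9 and 72.04 in GFP-positive libraries, against 67.0, 71.4 and 68.0 in GFP-negative libraries (difference -0.32, interval -0.94 to 0.31, limma adjusted p = 0.395). The gene lies 24615 bases from Col3a1 on chromosome 1. Col5a3 had 0.662, 5.73 and 3.27 in GFP-positive libraries, against 1.77, 22.1 and 7.29 in GFP-negative libraries (difference -1.29, limma adjusted p = 0.258). Libraries 11 and M held the highest 2 values for Col5a1 and Col5a3, while for Col5a2 all 6 lay between 40.99 and 72.04.

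The remaining fibrillar chains were low. Col11a1, a minor fibril chain best known from cartilage, had 1.48, 0.863 and 3.23 scaled FPKM in GFP-positive libraries, against 3.08, 3.26 and 5.47 in GFP-negative libraries (log2 difference -0.998, limma adjusted p = 0.0872). Col27a1, another chain best known from cartilage, had 1.51, 1.25 and 0.944 in GFP-positive libraries, against 1.77, 2.90 and 2.43 in GFP-negative libraries. For Col27a1 the groups did not overlap, and its difference of -0.72 missed the threshold (limma adjusted p = 0.0803). The cartilage chain Col2a1, Col11a2 and Col24a1 stayed under 0.5 scaled FPKM in every library and were not tested.

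Markers of matrix-producing cell types were also uneven across the same libraries. Of 10 fibroblast markers 7 were tested and 1 fell (14.3%, against 13.7% of all genes). The summed level of the 10 was 22.5, 9.27 and 13.3 scaled FPKM in GFP-positive libraries, against 13.3, 62.3 and 20.0 in GFP-negative libraries. Pdgfrb, a growth factor receptor of mesenchymal cells, had 1.18, 0.913 and 1.10 in GFP-positive libraries, against 2.25, 28.6 and 6.82 in GFP-negative libraries, and fell (limma adjusted p = 0.0338). Lum, Fap and Pi16 were under 0.5 in all 6, and Dcn was lowest in library 11, at 1.59. Of 10 peritubular myoid markers all were tested and 2 fell (20%, against 13.7% of all genes). Their summed level was 151, 2042 and 1158 in GFP-positive libraries, against 517, 1082 and 447 in GFP-negative libraries. The smooth muscle myosin Myh11, tested only through its GFP-negative levels, had 0.0963, 0.333 and 0.312 in GFP-positive libraries, against 0.919, 17.3 and 2.33 in GFP-negative libraries. The order 11, M, 9 held for 7 of the 10 fibroblast and 6 of the 10 myoid markers, against 29.0% of all genes tested. Pdgfrb and Myh11 were among them. The same order held for 4 of 8 Leydig, 3 of 7 endothelial and 1 of 15 Sertoli markers. Among germ cell and macrophage markers it held for 1 of 14 and 0 of 8. It did not hold for the most abundant myoid markers, Tagln and Acta2, nor for the summed myoid level. Tagln had 81.9, 1396 and 747 scaled FPKM in GFP-positive libraries, against 266, 346 and 194 in GFP-negative libraries, with overlap. Leydig cell markers (1 of 5 tested fell) summed to 46.6 to 90.7 in GFP-positive libraries and 82.6 to 109.8 in GFP-negative ones. Macrophage markers (1 of 2 fell) summed to 2.02 to 2.76 in GFP-positive libraries and 4.08 to 9.63 in GFP-negative ones, and endothelial markers (0 of 1 called) to 3.52 to 6.42 in GFP-positive and 7.65 to 13.2 in GFP-negative libraries. The part of other cell types in the collagen differences was not tested.

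Among the other collagens 2 of 12 genes fell (16.7%, against 13.7% of all genes) and 0 rose, with a median difference of -0.99. Collagen VI forms beaded filaments around cells from 1 chain each of Col6a1, Col6a2 and Col6a3. Col6a1 had 4.32, 3.10 and 3.99 scaled FPKM in GFP-positive libraries, against 2.91, 53.3 and 13.9 in GFP-negative libraries (log2 difference -1.70, limma adjusted p = 0.138). Col6a2 had 4.16, 3.76 and 3.67 in GFP-positive libraries, against 2.02, 63.4 and 9.81 in GFP-negative libraries (difference -1.44, limma adjusted p = 0.26). For both, library 9 was the lowest of the 6 and library 11 the highest by far.

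Col6a3 (chr1:90693645-90771693, minus strand, mm39), the longest collagen VI chain, had 2.40, 5.58 and 5.54 scaled FPKM in GFP-positive libraries, against 11.4, 77.8 and 24.9 in GFP-negative libraries. Here library 9 too lay above all GFP-positive libraries, and the gene fell by 2.60 (SE 0.62, limma adjusted p = 0.0185). The mean was 4.51 ± 1.83 in GFP-positive libraries and 38.02 ± 35.1 in GFP-negative libraries (SD, n = 3 each). Calls were lost without GFP-positive 2 (adjusted p = 0.0534), GFP-positive 7 (0.0568) or GFP-negative M (0.0653), and after removal of the length trend (0.0572). Unnamed isoforms held 76.3% of the Col6a3 FPKM, and with named transcripts only the difference was -1.22 (adjusted p = 0.306). An assembled 43-exon transcript had 0.996, 2.61 and 1.75 scaled FPKM in GFP-positive libraries, against 6.97, 37.9 and 17.3 in GFP-negative libraries. The annotated 41-exon transcript had 0.345, 0.584 and 1.07 in GFP-positive libraries, against 1.44, 19.4 and 1.31 in GFP-negative libraries. Both forms were highest in library 11, and the annotated form was close to the GFP-positive values in libraries 9 and M.

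Collagens XV and XVIII are basement membrane proteoglycans whose C-terminal fragments, restin and endostatin, are released by cleavage. Col15a1 (chr4:47208161-47313167, plus strand, mm39) had 21.1, 24.0 and 29.1 scaled FPKM in GFP-positive libraries, against 41.9, 164 and 125 in GFP-negative libraries. The GFP-positive values were tight and the groups were well apart, and the gene fell by 1.93 (SE 0.47, 95% confidence interval -2.99 to -0.87, limma adjusted p = 0.019). Its mean was 24.8 ± 4.06 in GFP-positive libraries and 110.2 ± 62.3 in GFP-negative libraries (SD, n = 3 each). It was the only collagen still called after the length trend was removed (difference -1.61, adjusted p = 0.042). The call was lost without GFP-positive 2 (adjusted p = 0.0528), GFP-positive 4 (0.0593), GFP-positive 7 (0.0619) or GFP-negative M (0.0796), and held without either of the others (0.0407 without GFP-negative 11).

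Col18a1 (chr10:76888012-77002382, minus strand, mm39) had 36.9, 104 and 42.05 scaled FPKM in GFP-positive libraries, against 126, 83.4 and 179.5 in GFP-negative libraries. The groups overlapped at GFP-positive 4 and GFP-negative 11, and the difference of -1.17 missed the threshold (limma adjusted p = 0.0739) but passed without either of those libraries (0.0352 without GFP-positive 4, 0.0496 without GFP-negative 11). The gene has a distal and a proximal start 52602 bases apart in the tables. Transcripts from the distal start had 36.3, 102.5 and 41.4 scaled FPKM in GFP-positive libraries, against 125, 66.7 and 156 in GFP-negative libraries. Those from the proximal start had 0.544, 1.04 and 0.576 in GFP-positive libraries, against 1.01, 14.7 and 21.4 in GFP-negative libraries. The proximal share was 1.47%, 0.999% and 1.37% in the GFP-positive libraries and 0.801%, 17.6% and 11.9% in the GFP-negative ones, so it exceeded 1.47% in libraries 11 and M alone. An unnamed assembled isoform held 59.7% of the Col18a1 FPKM. Transcripts of both starts share exons and hence reads, so their split is an estimate by the assembler and was given no test. Which start is in use was not tested.

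The windows of both starts are shown to set the start assigned most FPKM in every library beside the one whose share was largest in libraries 11 and M. The first sequence is the distal window (chr10:77166481-77166780, minus strand) and the second the proximal window (chr10:77113656-77113955, minus strand), both from RefSeq in GRCm38.p6 with the same capitals.
Col18a1 distal: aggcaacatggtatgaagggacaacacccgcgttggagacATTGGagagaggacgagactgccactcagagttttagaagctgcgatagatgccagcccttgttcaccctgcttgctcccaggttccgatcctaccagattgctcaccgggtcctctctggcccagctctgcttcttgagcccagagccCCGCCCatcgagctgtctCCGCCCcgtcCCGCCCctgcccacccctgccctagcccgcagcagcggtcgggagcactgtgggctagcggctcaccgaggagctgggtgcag
Col18a1 proximal: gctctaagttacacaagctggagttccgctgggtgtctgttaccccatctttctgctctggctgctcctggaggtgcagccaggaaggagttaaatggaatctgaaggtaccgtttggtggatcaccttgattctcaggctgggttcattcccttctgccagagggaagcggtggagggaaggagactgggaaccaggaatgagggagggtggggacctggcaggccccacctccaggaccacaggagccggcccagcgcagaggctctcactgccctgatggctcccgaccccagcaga
The distal window held a minus-strand CCAAT at -210 and minus-strand GGGCGG at -61, -43 and -33. No match to the 3 motifs was found in the proximal window, which says only that these letters are not in it. Of the 2 proximal transcripts 1 begins at base 251 of that window and the other at base 10. Little sequence before the latter start was therefore searched.

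The fibril-associated collagens, which decorate the surface of fibrils, showed no call. Col12a1 had 52.2, 40.1 and 33.7 scaled FPKM in GFP-positive libraries, against 79.0, 45.3 and 62.8 in GFP-negative libraries (log2 difference -0.55, limma adjusted p = 0.181). Col14a1 ran against the common order among the GFP-negative libraries. It had 39.2, 31.7 and 18.5 in GFP-positive libraries, against 68.2, 7.86 and 36.5 in GFP-negative libraries, and library 11 was the lowest of the 6 (difference 0.06, interval -1.48 to 1.61, limma adjusted p = 0.95). Col16a1 had 12.0, 27.7 and 17.1 in GFP-positive libraries, against 12.0, 26.7 and 29.5 in GFP-negative libraries (difference -0.23, limma adjusted p = 0.681). Col9a3, a chain of cartilage collagen IX, had 1.19, 2.57 and 1.28 in GFP-positive libraries, against 0.745, 0.515 and 2.26 in GFP-negative libraries (difference 0.47, limma adjusted p = 0.414). For each of these 4 the groups overlapped.

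Col7a1, the chain of the anchoring fibrils of skin, had 0.0717, 0.161 and 0.238 scaled FPKM in GFP-positive libraries, against 0.297, 3.96 and 1.65 in GFP-negative libraries. The groups were separate, and the log2 difference of -1.59 narrowly missed the threshold (limma adjusted p = 0.0569). Collagen VIII forms a hexagonal lattice, best known from the basement membrane of the corneal endothelium. Its chain Col8a1 varied most among the GFP-positive libraries, 17.9-fold, with 0.252, 2.60 and 4.51 in GFP-positive libraries, against 2.03, 6.59 and 2.97 in GFP-negative libraries (difference -0.81, limma adjusted p = 0.374). The partner chain Col8a2 had 0.457, 0.772 and 0.844 in GFP-positive libraries, against 0.163, 0.649 and 0.314 in GFP-negative libraries (difference 0.47, limma adjusted p = 0.273). Neither collagen VIII chain separated the groups.

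**Figure D3:**
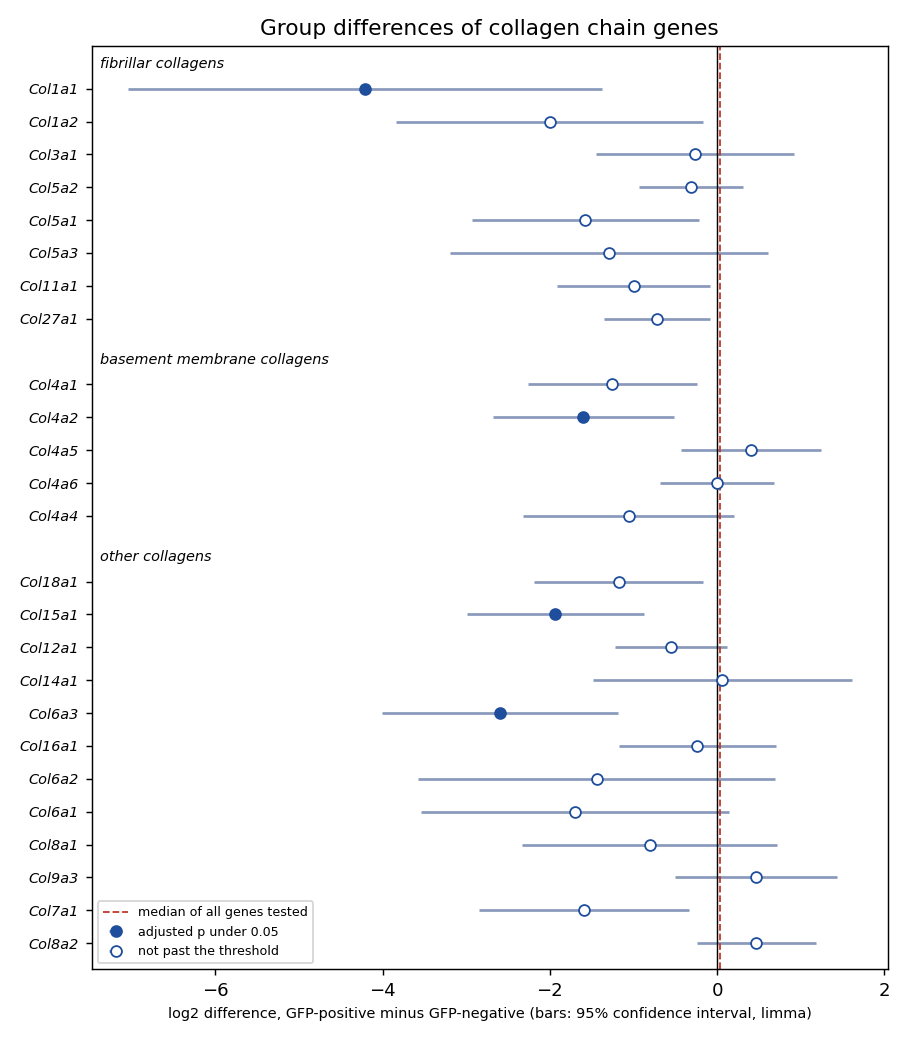
Log2 difference (GFP-positive minus GFP-negative) of each of the 25 described collagen genes with its 95% confidence interval from limma; filled points passed the threshold and the dashed line is the median of all genes tested, 0.03. The 4 genes that fell lie between -1.60 and -4.21, and 4 genes lie above 0.

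The 19 genes under the limit were scarce throughout. Apart from Col4a3, they had means of at most 0.44 FPKM, and the highest single values belonged to library 11, with 1.11 scaled FPKM for the collagen VI chain Col6a4 and 1.11 for Col26a1. The transmembrane chains Col13a1 and Col25a1 averaged 0.44 and 0.33 FPKM. The chains Col9a1, Col19a1 and Col6a5 averaged 0.001, 0.006 and 0.016 FPKM. None of these 19 other than Col4a3 passed the filter on low values.

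Proportions between chains were compared within each library, which removes any scaling between libraries. In all, 10 ratios were computed, and with 3 against 3 libraries no exact two-sided permutation test can give a p under 0.1. The ratio of Col1a1 to Col1a2 was 0.125, 0.184 and 0.184 in GFP-positive libraries, against 0.321, 1.56 and 1.07 in GFP-negative libraries. In the collagen I molecule the chains stand at 2 to 1. The groups did not overlap (mean log2 difference -2.33, exact permutation p = 0.1). Likewise separate, each with an exact permutation p of 0.1 (0.25 after Benjamini-Hochberg adjustment over the 10 ratios), were Col1a1 to Col3a1 (mean log2 difference -4.08), Col4a1 to Col4a2 (0.35) and Col4a5 to Col4a1 (1.66). Col4a5 to Col4a1 was 0.942, 0.494 and 0.603 in GFP-positive libraries, against 0.492, 0.0715 and 0.252 in GFP-negative libraries, with GFP-positive 4 next to GFP-negative 9. That separation rests on Col4a5 values that include the assembled 51-exon transcript. By named transcripts alone, Col4a5 had 79.3 FPKM in GFP-positive 4 and 116 in GFP-negative 9, with Col4a1 at 245 and 292. The Col4a5 to Col4a1 ratio of named transcripts was thus lower in GFP-positive 4, and the groups overlapped. Col4a1 to Col4a2 kept a narrow range, 2.21, 1.85 and 2.14 in GFP-positive libraries, against 1.80, 1.59 and 1.46 in GFP-negative libraries. This range and the separation rest on Col4a2 values that include the assembled upstream transcript, 30.9% to 86.4% of the gene. The annotated Col4a2 transcript alone had 7.91, 30.1 and 56.1 scaled FPKM in GFP-positive libraries, against 67.4, 293 and 192 in GFP-negative libraries. Ratios to that transcript alone were not computed.

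The other 6 ratios overlapped between the groups. Col4a5 to Col4a6 lay between 3.05 and 7.34 in all 6 libraries, and the exact permutation p was 0.4. Col6a1 to Col6a2 stayed between 0.824 and 1.44 (exact permutation p = 0.3) although library 11 exceeded library 9 by 18.3-fold for Col6a1 and by 31.5-fold for Col6a2. Col6a3 to Col6a1 was 0.555, 1.80 and 1.39 in GFP-positive libraries, against 3.92, 1.46 and 1.78 in GFP-negative libraries (exact permutation p = 0.3). Col5a1 to Col5a2 was 0.237, 0.326 and 0.286 in GFP-positive libraries, against 0.291, 1.71 and 0.645 in GFP-negative libraries (exact permutation p = 0.2). Library 9 lay outside the GFP-positive range for Col6a3 to Col6a1 and inside it for Col5a1 to Col5a2. The former rests on unnamed isoforms, which held 76.3% of the Col6a3 FPKM. By named transcripts alone, library 9 had 1.78 FPKM of Col6a3 and 3.13 of Col6a1. GFP-positive 2 had 0.673 and 4.79, and GFP-positive 4 had 1.89 and 2.81, so library 9 then lay inside the GFP-positive range.

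**Figure D4:**
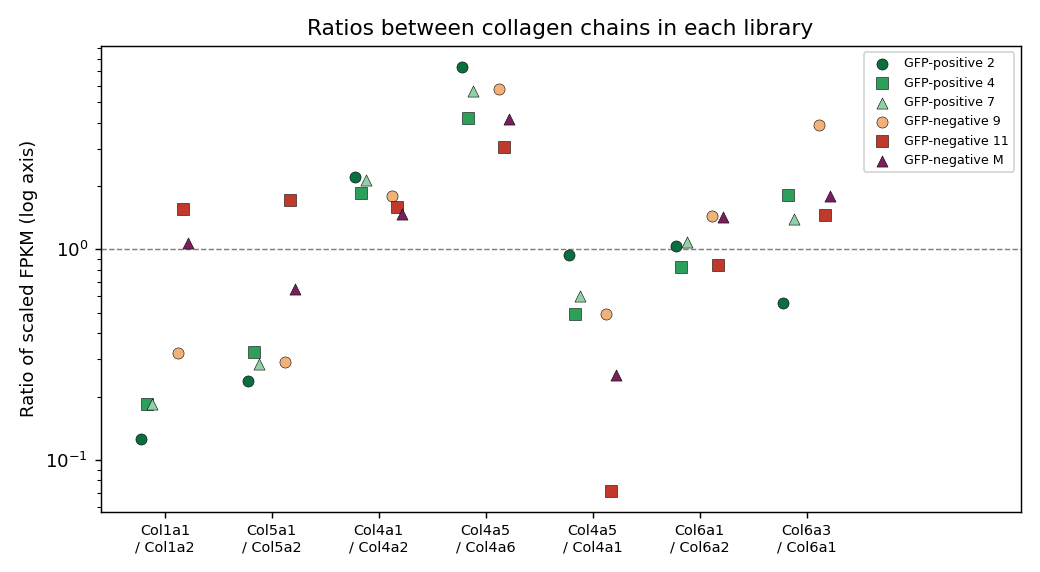
Ratio of scaled FPKM between pairs of collagen chains in each library, on a log axis. Col1a1 to Col1a2 was at most 0.184 in the GFP-positive libraries and 0.321 to 1.56 in the GFP-negative libraries, while Col6a1 to Col6a2 lay between 0.824 and 1.44 in all 6.

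Genes that process, crosslink, bind or degrade collagens were followed as a list of 55. Of these 44 were tested, 12 fell and 2 rose (27.3% and 4.55%, against 13.7% and 16.6% of all genes). Among the 20 tested genes of intracellular processing 6 fell and 1 rose (30% and 5%). Creb3l1, a transcription factor known to act on the collagen I gene in bone, had 1.40, 2.39 and 1.69 scaled FPKM in GFP-positive libraries, against 8.50, 33.2 and 16.9 in GFP-negative libraries, and fell by 2.93 (limma adjusted p = 0.00646). Its groups were far apart, with the GFP-negative libraries in the order 11, M, 9. Mia3, needed for the export of procollagen from the endoplasmic reticulum, fell by 1.66 (limma adjusted p = 0.00709). The prolyl hydroxylase subunit P4ha2 fell by 1.64 (limma adjusted p = 0.0165), as did the foldases Fkbp14 and Fkbp10, by 1.08 and 1.53, and the lysyl hydroxylase Plod1, by 0.93. Ppib, a cyclophilin that acts in procollagen folding, rose, with 305, 377 and 311 in GFP-positive libraries, against 157, 133 and 110.3 in GFP-negative libraries (difference 1.32, limma adjusted p = 0.0143). The collagen chaperone Serpinh1 was not called (difference -0.40, limma adjusted p = 0.388).

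Of 12 tested genes of procollagen cleavage and crosslinking 3 fell and 0 rose (25% and 0%, against 13.7% and 16.6% of all genes). With so few genes in each list, a share moves much with 1 call. Furin, the proprotein convertase, fell by 2.72 (limma adjusted p = 0.0088), the procollagen N-proteinase Adamts14 by 1.35 (0.0195), and Pxdn, the peroxidase that crosslinks collagen IV, by 1.23 (0.0429). Of 5 tested receptors 1 fell (20%, against 13.7% of all genes) and 0 rose. The alpha subunits Itga1, Itga2 and Itga10 averaged 0.333, 0.0373 and 0.258 scaled FPKM and were not tested. Itga11 averaged 0.921 and was not called. The gene that fell, Itgb1, the beta subunit of the collagen-binding integrins, had 45.5, 58.5 and 69.5 scaled FPKM in GFP-positive libraries, against 131, 146 and 145 in GFP-negative libraries (difference -1.29, limma adjusted p = 0.0117). It was even within the GFP-negative group, where library 9 lay apart from 11 and M for many collagens. Of 7 tested genes of degradation 2 fell and 1 rose (28.6% and 14.3%, against 13.7% and 16.6% of all genes). The matrix metalloproteinases Mmp2 and Mmp14 fell, by 2.12 and 1.08 (limma adjusted p = 0.0115 and 0.0268), and cathepsin K (Ctsk) rose by 1.25 (0.0307). The 12 falls numbered 4 without GFP-positive 7 and 3 without GFP-negative M.

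Collagen transcripts are long, and the group difference varied with transcript length over all genes. The median difference over all genes was 0.95 for genes whose longest transcript had at most 1000 bases and -0.59 for those over 8000 bases. The collagen transcripts ranged from 3046 to 11824 bases with a median of 6536, and 24 of the 25 exceeded 4000. Among all 5774 tested genes over 4000 bases, 24.1% fell, 71.2% had a difference below 0, and the median was -0.42. Beside these genes the collagens had fewer falls (16%), more differences below 0 (84%) and a lower median (-1.06). With the trend removed in each library the collagen median was -0.49, and 1 of the 25 genes, Col15a1, fell.

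**Figure D5:**
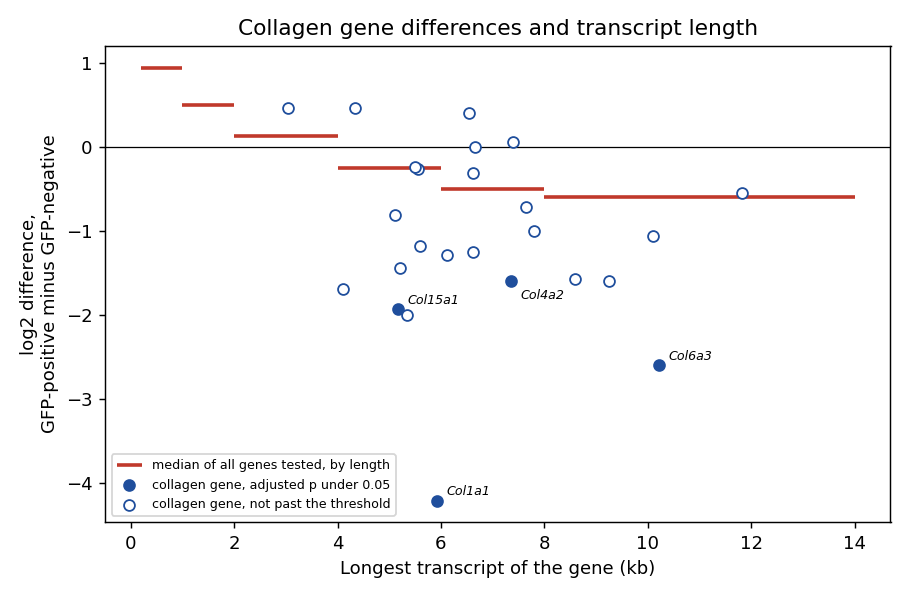
Log2 difference (GFP-positive minus GFP-negative) against the longest transcript of the gene in kilobases for the 25 described collagen genes, with the median of all genes tested in length classes. The medians over all genes decline from 0.95 to -0.59, and most collagen points lie below them.

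The sum of FPKM differed between the groups, at 668557 to 747404 in the GFP-positive libraries and 292449 to 470070 in the GFP-negative ones, so the scaling bears on every level given. With libraries scaled to an equal sum the median difference of all genes shifted to -0.85, and 19 of the 25 collagen genes fell and 0 rose. The median collagen difference was then -1.88. Relative to the median of all genes it was -1.03, compared with -1.09 under the scaling used.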

How the data were processed

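Total RNA was extracted with TRIzol, treated with DNase and depleted of ribosomal RNA, and strand-specific libraries were made with dUTP, per the labels' protocols. Build mm39 and the tools Trimmomatic, HISAT2 and StringTie are named, without versions, in the submitters' processing notes. No strand setting is stated there, and genes that overlap on opposite strands may share reads. Per the file headers, the deposited tables list the same 153503 transcripts for every library, with the FPKM the authors computed and the mean coverage per base. The ratio of coverage to FPKM gave the aligned bases. Read counts were not used, and intervals for counting error are therefore not given.

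The FPKM of a gene was summed over its transcripts, with unnamed isoforms added where a locus had exactly 1 gene name on the same strand. In all, 1425 unnamed transcripts were left out (1.63% to 6.34% of FPKM). They lay at loci with named genes where their strand did not carry exactly 1 gene name. Scaling used the median of ratios, taken over 12661 genes averaging at least 1 FPKM. Genes whose longest transcript was under 200 nt or whose mean was under 0.5 scaled FPKM were left out. Values were tested as log2(scaled FPKM + 0.5) over 15293 genes with limma 3.58.1 in R 4.3.3 (eBayes with a trend), Benjamini-Hochberg adjustment and a threshold of 0.05, with groups and n taken from the labels. On this scale the changes of low genes are understated. The method was tested on simulated data with independent noise in each gene. Such data lack any pattern shared between the genes of a library, so that test says nothing about calls that rest on one. Ratios between chains were compared by exact permutation over 20 relabellings. The named genes are all 25 described collagens, called pathway genes by adjusted p, and the leading markers; genes named beyond these were chosen after their values were seen. The collagen genes, lists and tests were chosen with earlier results of these data known. The comparison was repeated under 18 alternatives. Promoter sequences are from a RefSeq table of GRCm38.p6, matched by symbol; gene coordinates are those of the tables (mm39), with no conversion. Tables and figures were made with Python 3.11.15, pandas 2.3.3 and matplotlib 3.10.9.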

Additional observations from a re-analysis of the deposited data

How the results depend on the processing

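The 4 collagens that fell kept their direction under all 18 alternatives, of which removal of libraries 11 and M together and array weights were chosen after seeing the data. The counts of calls did not hold. Leaving out 1 library at a time gave 538 to 6209 calls over all genes (4640 with all libraries), 0 to 13 among the collagens (4), 0 to 3 among basement membrane chains (1), 0 to 5 among fibrillar chains (1), 0 to 5 among other chains (2) and 3 to 17 among pathway genes (14). The collagen count was 0 without GFP-positive 2, GFP-positive 7 or GFP-negative M, 3 without GFP-positive 4 or GFP-negative 11, and 13 without GFP-negative 9. In the order all genes, collagens, basement membrane, fibrillar, other and pathway, the calls were 1777, 0, 0, 0, 0 and 6 with no filter, 7348, 19, 4, 7, 8 and 35 with an equal sum, 9190, 16, 2, 6, 8 and 25 with array weights, and 0 throughout without 11 and M, where 1 GFP-negative library is left and the test can say little. Removal of the length trend left 2675, 1, 0, 0, 1 and 10. Quantile normalization gave 7 collagens, 2 of them basement membrane and 4 other, FPKM as deposited gave 2 basement membrane chains, and named transcripts only gave 1 other chain. Rises made up 54.8% of calls over all genes, against 8.33% with an equal sum.

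Of 445 gene-level values 32 turned sign, all in collagens that were not called and with no called value among them. An equal sum gave -0.61 for Col4a5, -0.062 for Col8a2, -0.27 for Col9a3 and -0.94 for Col14a1. Quantile normalization gave -0.18 for Col4a5 and -0.12 for Col14a1, and named transcripts only gave 0.0090 for Col4a6 and -0.079 for Col14a1. Without the length trend Col3a1 was at 0.11, Col4a6 at 0.46, Col5a2 at 0.15, Col12a1 at 0.11 and Col16a1 at 0.13. Without 11 and M, Col3a1 was at 0.94, Col4a5 at -0.21, Col5a3 at 0.34, Col6a1 at 0.26, Col6a2 at 0.73, Col14a1 at -1.32 and Col16a1 at 0.49. Array weights gave -0.27 for Col9a3 and -0.52 for Col14a1. With 1 library left out, Col3a1 ranged over -0.90 to 0.079, Col4a5 over -0.023 to 0.67, Col4a6 over -0.25 to 0.18, Col8a1 over -1.36 to 0.012, Col14a1 over -0.84 to 0.71 and Col16a1 over -0.64 to 0.065. The causes were not tested. No paired analysis was possible because the GFP-positive and GFP-negative libraries share no replicate label. With 3 libraries a group, and 1 aligned-base total per library in place of read counts, small differences in low genes such as Col7a1 and Col8a2 cannot be resolved.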
